A study of Mus musculus with 20 samples.

Results

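The genes described here are 27 genes of cholesterol synthesis and of its control by SREBP2, of 21768 genes with a named row in a deposited table of mouse liver RNA. They were chosen by symbol, and all 27 were found. Each gene stands for its transcript with the highest count summed over 10 libraries. The study gave WT mice drinking water with CdCl2, a cadmium salt, at 100 mg/L over 3 or 9 months, and set their livers against control livers of the same times. It was built to map m6A, a methyl mark on mRNA, and the libraries used here are those labelled as input, which in such a design hold RNA fragments without the antibody step. There were 3 libraries of livers exposed for 3 months, 2 of 3-month controls, 3 of livers exposed for 9 months and 2 of 9-month controls. They are called below by the replicate numbers of their labels. The labels do not say whether a number links a library of one group to one of another. The sources used here do not give the sex, strain or age of the mice, or what the controls drank. Nothing in the labels says that replicates were separate mice, so p-values measure the spread between these libraries, which may be technical.

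Liver is a main site of cholesterol synthesis in the body. The pathway starts from acetyl-CoA, passes through mevalonate and the isoprenoid diphosphates to squalene, closes the sterol rings at lanosterol and ends in cholesterol. Its enzymes are switched on together by SREBP2, the product of Srebf2, a transcription factor made as a precursor in the membrane of the endoplasmic reticulum. SCAP carries the precursor to the Golgi when sterols are scarce, and the proteases encoded by Mbtps1 and Mbtps2 then free the part that enters the nucleus. When sterols are plentiful, the INSIG proteins hold SCAP back. Insig1 is itself a target of the SREBPs, whereas Insig2 in mouse liver is known as a transcript that is high in fasting and lowered by insulin.

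SREBP2 binds sterol regulatory elements, usually beside CCAAT boxes bound by NF-Y. The RefSeq promoter windows (GRCm38.p6, 250 bases before to 50 after a start) of 4 genes on which the results turn are shown 5′ to 3′ on the gene's strand. Hmgcs1 and Idi1 stand for the enzymes, and Insig1 and Insig2 for the regulators whose levels ran in opposite directions over the libraries. Capitals mark letters that match CACNCCAC (within the longer core TCACNCCAC in Hmgcs1), the CCAAT box or the E-box CACGTG on either strand. The windows are chr13:119690101-119690400 on the plus strand for Hmgcs1, chr13:8885356-8885655 on the plus strand for Idi1, chr5:28071162-28071461 on the plus strand for Insig1 and chr1:121332540-121332839 on the minus strand for Insig2.
Hmgcs1: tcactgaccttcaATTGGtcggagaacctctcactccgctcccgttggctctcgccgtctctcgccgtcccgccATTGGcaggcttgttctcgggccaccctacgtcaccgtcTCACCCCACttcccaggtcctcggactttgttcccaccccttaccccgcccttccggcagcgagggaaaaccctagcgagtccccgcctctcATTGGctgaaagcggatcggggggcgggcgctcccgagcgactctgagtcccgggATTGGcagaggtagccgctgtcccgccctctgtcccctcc
Idi1: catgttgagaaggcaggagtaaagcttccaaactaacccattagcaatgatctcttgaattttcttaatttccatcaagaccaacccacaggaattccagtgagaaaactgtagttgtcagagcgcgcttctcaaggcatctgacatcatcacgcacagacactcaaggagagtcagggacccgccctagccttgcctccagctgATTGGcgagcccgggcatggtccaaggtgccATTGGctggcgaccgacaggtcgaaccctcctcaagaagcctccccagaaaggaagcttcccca
Insig1: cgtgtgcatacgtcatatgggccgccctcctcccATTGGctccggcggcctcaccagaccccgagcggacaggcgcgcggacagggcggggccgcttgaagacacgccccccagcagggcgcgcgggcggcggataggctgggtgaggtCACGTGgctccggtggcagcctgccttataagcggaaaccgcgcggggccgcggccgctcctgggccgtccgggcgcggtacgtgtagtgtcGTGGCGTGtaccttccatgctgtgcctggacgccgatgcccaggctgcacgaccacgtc
Insig2: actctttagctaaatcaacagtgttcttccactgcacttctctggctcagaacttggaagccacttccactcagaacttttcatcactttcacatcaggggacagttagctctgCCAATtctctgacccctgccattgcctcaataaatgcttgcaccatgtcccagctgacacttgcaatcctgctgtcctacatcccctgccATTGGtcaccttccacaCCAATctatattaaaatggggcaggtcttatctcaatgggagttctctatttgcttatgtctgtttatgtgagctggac

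Of the 27 genes, 23 had at least 1 such window. Of those 23, 19 (82.6%) held CCAAT, against 41.1% of all 27025 genes with a window. The Sp1 family box GGGCGG stood in 20 of the 23 (87.0%), against 38.2% of all genes. The E-box was found in 5 of 23 (21.7%), namely Dhcr7, Hsd17b7, Insig1, Sc5d and Scap, against 8.09% of all genes. The long core TCACNCCAC was matched in Hmgcs1 alone (4.35% of 23), against 1.44% of all genes, and the shorter CACNCCAC also in Acat2 and Insig1 (3 of 23 in all), against 7.12%. The Hmgcs1 window held 4 CCAAT boxes, Insig2 held 3, Idi1 held 2 and Insig1 held 1. A match is a description of the letters only. Fdps, Fdft1, Sqle and Stard4 were not in the table of windows.

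The libraries held 3958164 to 8912898 counts over all genes, of which the 27 genes took 0.189% to 0.362%, or 10162 to 29767 counts. All 27 passed the filter on low counts, as did 14067 genes in all. Markers of hepatocytes summed to 57200 to 95400 counts per 1000000 counts (CPM) in the 10 libraries. Both 3-month control libraries stood apart: each correlated with the rest at a median r of 0.828 or 0.827, against 0.895 to 0.931 in the remaining 8, and the biological coefficient of variation between them was 0.91, against 0.37 to 0.53 in the other groups. All 11 markers of pancreatic acinar cells were in the table, and they summed to 0.546 to 3.27 CPM in the 3-month exposed group, 1.69 and 234 CPM in 3-month controls, 1.03 to 1700 CPM in the 9-month exposed group and 2.43 and 8830 CPM in 9-month controls, where exposed library 1 and control library 2 held the high values at 9 months. Markers of Kupffer cells summed to 184 to 444 CPM. In bulk liver, fewer cells of a type and less RNA per cell cannot be told apart.

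Per transcript length, in the authors' transcripts per 1000000 (TPM), the most abundant of the 27 were the regulators Insig2 (median 104 TPM over 10 libraries, range 28.4 to 562) and Insig1 (84.9 TPM, range 28.4 to 169). They were followed by Tm7sf2 at 64.3 TPM and Ebp at 62.9 TPM, enzymes of late sterol synthesis, and by Hmgcs1 at 50.4 TPM, which makes HMG-CoA. Stard4 (38.9 TPM), Msmo1 (30.5), Sc5d (26.6), Fdps (23.8), Hsd17b7 (22.9), Scap (17.9), Cyp51 (14.8) and Fdft1 (11.6) came next, and then Lbr. Below them stood Mbtps1, Srebf2, Acat2, Dhcr7, Idi1, Sqle, Lss, Mbtps2, Mvk, Pmvk, Nsdhl and Mvd, and the lowest was Ggps1 at 0.92 TPM. The ranges of neighbours in this order overlapped in all 26 pairs, so that the order of any 2 neighbours lay within the spread. For 12 of the 27 genes a second transcript had over 90% of the count of the one used, so these TPM values describe transcripts and not whole genes. Insig1 lies within the span of Gm35223, a noncoding RNA that has no row in the table, and Yy2 lies within that of Mbtps2, and the counting strand is not given in the sources used here, so reads of such neighbours cannot be told apart.

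The genes differed most in how far they varied. Insig2 had the widest range of the genes with over 3 counts in every library, its highest CPM being 20.8 times its lowest, followed by Acat2 (14.9 times), Mvk (14.4), Msmo1 (13.1), Ggps1 (11.2), Idi1 (10.9) and Sqle (10.6). The steadiest were Ebp (1.72 times), Scap (2.29), Mbtps1 (2.61) and Srebf2 (2.89). The escort gene Scap, the protease gene Mbtps1 and the transcription factor gene Srebf2 thus spanned narrower ranges than most of the enzymes. Mbtps2, the other protease gene, spanned 3.71 times.

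**Figure D1:**
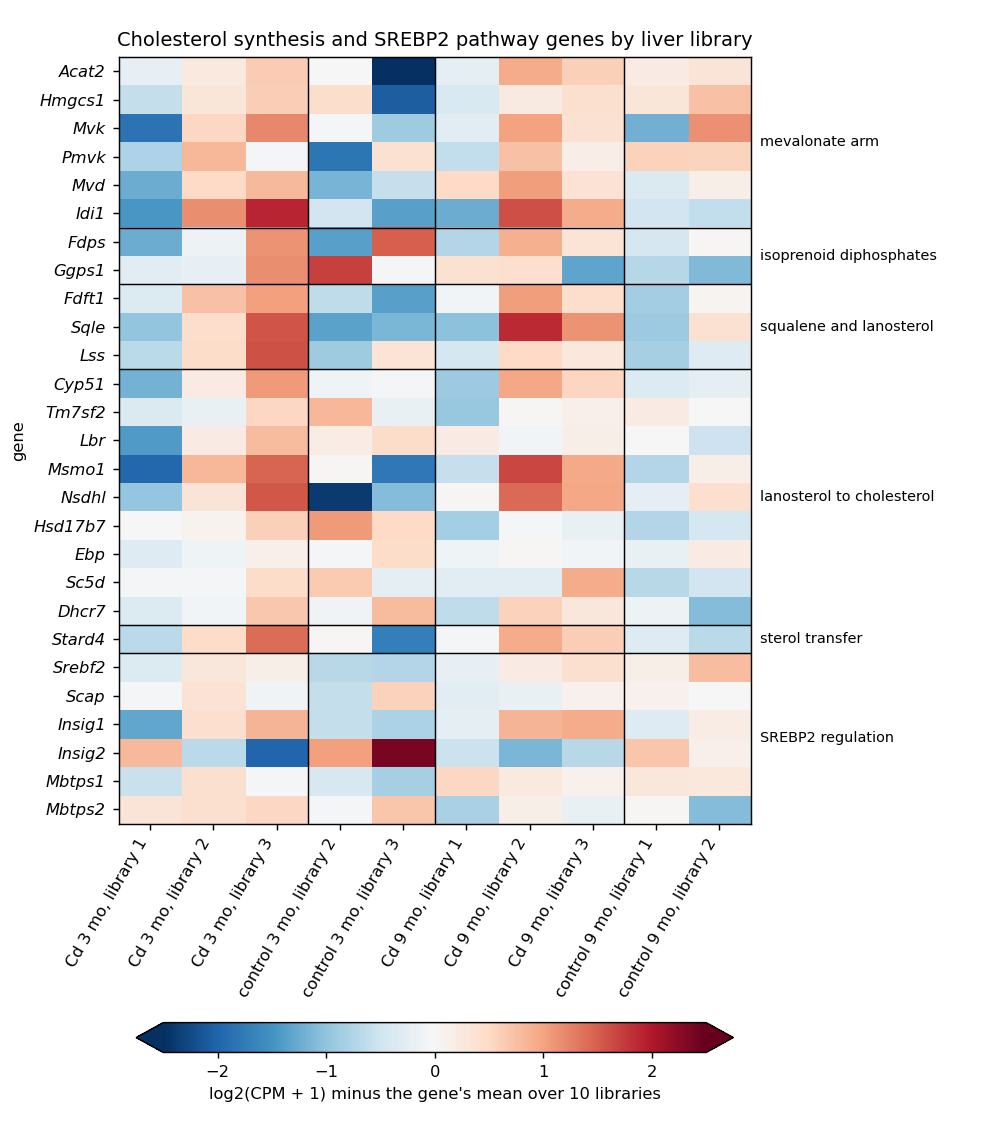
Level of each of the 27 genes (rows, ordered by role) in each of the 10 libraries (columns), as log2(CPM + 1) minus the gene's mean over the 10 libraries. Red is above and blue below that mean; exposed libraries 2 and 3 are red for most synthesis genes at both times, exposed library 1 is blue for most of them, and the Insig2 row runs the other way.

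The synthesis enzymes varied together from library to library more than they separated the groups. The mean log2(CPM + 1) of the 20 enzymes was 4.25, 5.36 and 6.0 in 3-month exposed libraries 1, 2 and 3, against 4.78 and 4.62 in 3-month control libraries 2 and 3. At 9 months it was 4.64, 5.78 and 5.42 in exposed libraries 1, 2 and 3, against 4.68 and 5.02 in control libraries 1 and 2. Exposed libraries 2 and 3 lay above all controls of their time, and exposed library 1 lay below them at both times, so the groups overlapped. The mean difference, exposed minus control, was 0.5 at 3 months (5.2 ± 0.89, n = 3, against 4.7 ± 0.12, n = 2, mean ± SD) and 0.43 at 9 months (5.28 ± 0.58, n = 3, against 4.85 ± 0.24, n = 2). Without exposed library 1 it was 0.98 at 3 months and 0.75 at 9 months, and without the exposed library with the highest mean it was 0.11 at 3 months and 0.18 at 9 months.

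Among the 3 libraries exposed for 3 months, library 1 was the lowest for 20 of the 20 enzymes, where it was the lowest for 36.9% of all genes tested. Library 3 was the highest for 19 of 20, against 33.7% of all genes. Among the libraries exposed for 9 months, library 1 was the lowest for 17 of 20 enzymes, against 35.9% of all genes, and library 2 the highest for 16, against 33.7%. Each 3-month control was the higher for 10 of 20, against 42.9% of all genes for library 2 and 53.5% for library 3. In the 9-month controls library 2 was the higher for 14, against 50.2% of all genes. These counts describe the libraries, since the enzymes share them. Markers of adipose tissue summed to 74.1 CPM in 3-month exposed library 1, against 1.23 to 10.1 CPM in the remaining 9 libraries. Of these 5 markers Cidec, a lipid droplet protein, made 73.5 CPM of that sum, while Adipoq, Lep and Cfd were at 0 there, and their part in the enzyme levels was not tested.

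Correlation with the mean of the other enzymes over the 10 libraries, given as a description over points that share library and depth, was high for part of the pathway. Pearson's r was 0.95 for Idi1 (Spearman's rho 0.93), which turns isopentenyl into dimethylallyl diphosphate, 0.93 for Cyp51, the lanosterol demethylase, 0.93 for Msmo1, the sterol methyl oxidase, 0.91 for Sqle, squalene epoxidase, 0.83 for Mvk, mevalonate kinase, and 0.82 for Fdft1, squalene synthase. These 6 of 20 enzymes had r over 0.8, and Ggps1 (0.08), Hsd17b7 (0.14) and Ebp (0.21) had r under 0.3. The median over the 20 was 0.54 (0.74 for deviations from the group means, with 9 enzymes over 0.8). Hsd17b7 reached 0.78 on deviations from the group means. Over the 190 pairs of enzymes the median r was 0.37, with 162 pairs above 0. Without the 2 libraries farthest from the median enzyme level, r was 0.9 for Idi1, 0.91 for Msmo1, 0.83 for Cyp51 and 0.83 for Sqle. It fell to 0.77 for Mvk and 0.66 for Fdft1, and was -0.45 for Ggps1, -0.1 for Hsd17b7 and 0.09 for Ebp.

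The regulators split in the same view. Insig1 followed the enzymes (r = 0.93, rho = 0.92), also on deviations from group means (r = 0.97) and without the 2 libraries farthest from the median enzyme level (r = 0.95). Stard4, a carrier that moves sterols between membranes, did so too (r = 0.83, rho = 0.84), with r = 0.64 without those 2 libraries. Insig2 ran against them (r = -0.81, rho = -0.85), with r = -0.86 on deviations and r = -0.62 without those 2 libraries. Srebf2 had r = 0.53, Mbtps1 0.39, Mbtps2 0.15 and Scap -0.03.

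**Figure D2:**
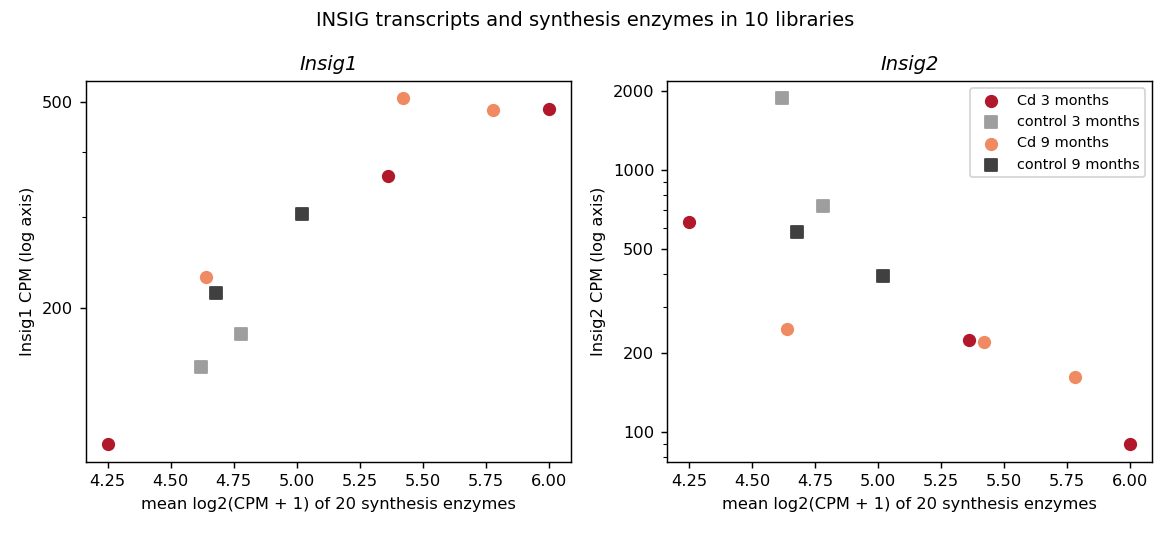
CPM of Insig1 (left) and Insig2 (right), on log axes, against the mean log2(CPM + 1) of the 20 synthesis enzymes; each point is 1 of 10 libraries, coloured by group. Insig1 is highest in the libraries with high enzyme levels (r = 0.93 on the log2 scale) and Insig2 is lowest there (r = -0.81).

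The ratio of Insig1 to Insig2 CPM summed up this opposition. It was 0.173, 1.62 and 5.43 in 3-month exposed libraries 1, 2 and 3, against 0.245 and 0.0826 in the controls. At 9 months it was 0.931, 2.99 and 2.31 in exposed libraries 1, 2 and 3, against 0.371 and 0.775 in the controls. At 3 months exposed library 1 lay between the controls, and at 9 months all 3 exposed libraries lay above both controls. Neither gene is set against the other by length here, so only the difference between libraries has a meaning.

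The first question of the design was whether cadmium changed these genes at each time. No member passed the threshold (adjusted p under 0.05, edgeR's quasi-likelihood test with Benjamini-Hochberg adjustment over 14067 genes) at 3 months, where 0.0498% of all genes passed, or at 9 months, where 0% did. At an unadjusted p under 0.05 there were 6 members at 3 months (22.2%), 5 higher and 1 lower, beside 14.5% of all genes, and 0 members at 9 months beside 2.25%. DESeq2 called 1 member at 3 months (3.7%), Fdft1 (adjusted p = 0.0399), beside 3.7% of all genes, and 0 at 9 months, beside 0.0499%. Limma voom called 0 at both times, beside 0.0142% of all genes at 3 months and 0.0213% at 9 months. At 3 months 17 of 27 members had a positive fold change, with a median log2 fold change of 0.60, and at 9 months 20 of 27, with a median of 0.49, while the medians of all genes were 0.01 at both times. At 3 months the exposed libraries all lay above both controls for 4 members (13.9% of all genes) and all below for 1 (11.9%). At 9 months they all lay above for 3 members (10.3% of all genes) and all below for 1 (11.8%).

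Taken as the mean of both times, again 0 members passed, beside 0.064% of all genes. At an unadjusted p under 0.05 there were 7 members (25.9%), beside 8.35% of all genes: Fdft1, Idi1, Sqle, Stard4, Nsdhl and Insig1 higher and Insig2 lower in exposed livers. DESeq2 called Fdft1 alone (adjusted p = 0.0426), beside 0.944% of all genes, and limma voom called 0, beside 0.0853%. Of the 27 members 22 had a positive fold change, with a median log2 fold change of 0.31, beside 51.3% of all genes and a median of 0.02. The 3-month controls carried weight here. Without control library 2 of 3 months 4 members passed at 3 months (Acat2, Hmgcs1, Stard4 and Insig2) and 4 in the mean (Acat2, Fdft1, Stard4 and Insig2), beside 4.62% of all genes at 3 months and 2.51% in the mean. Without control library 3 Nsdhl passed at 3 months, beside 8.16% of all genes. Without the 3 libraries over 100 CPM of pancreatic markers 0 members passed at either time or in the mean, beside 5.45% of all genes at 3 months, 0% at 9 months and 0.204% in the mean. Without the filter on low counts 7 members passed at 3 months, beside 2.39% of all genes, and 6 in the mean, beside 1.16%, and Idi1, Fdft1, Sqle, Msmo1, Stard4 and Insig2 were among them in both.

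**Figure D3:**
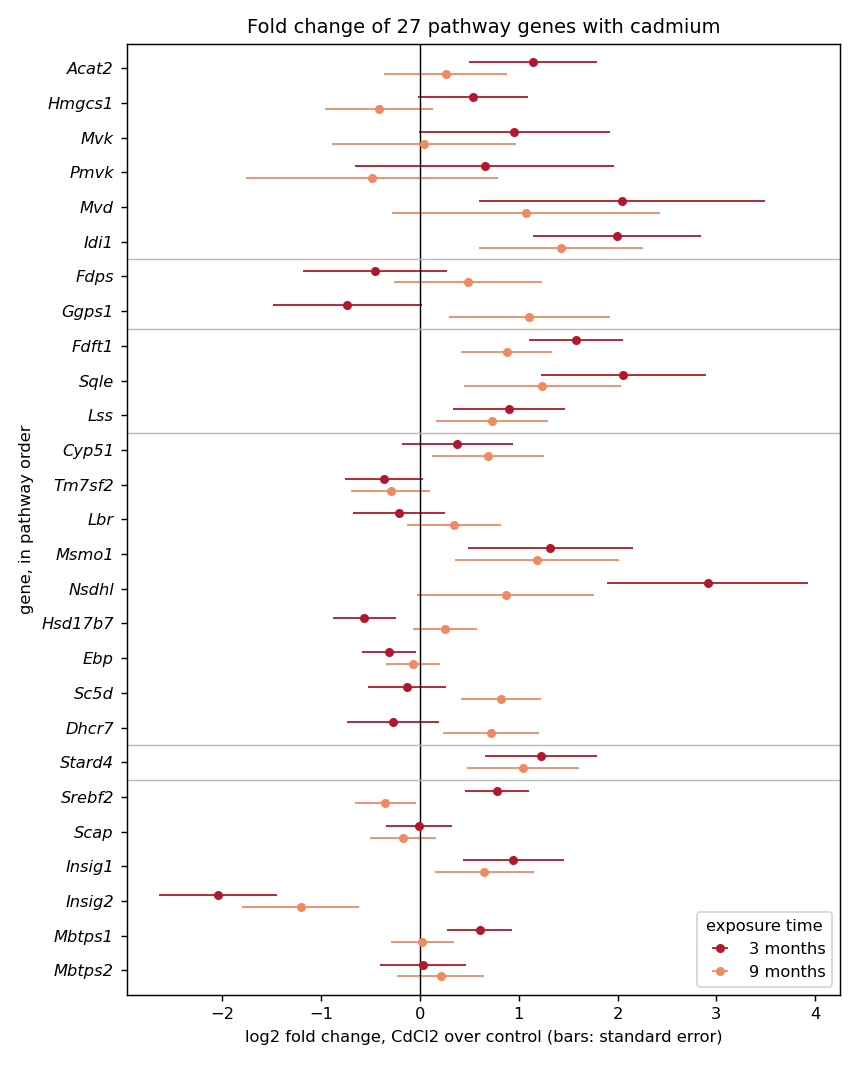
Log2 fold change, CdCl2 over control, of the 27 genes at 3 months (dark red) and 9 months (orange), from the fit over all 10 libraries; bars are the standard error and 0 is marked by a line. No gene passed the adjusted threshold; the mevalonate arm and the squalene steps lie right of 0 at 3 months, and Insig2 lies left of 0 at both times.

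In the mevalonate arm, which builds the isoprene unit, 6 of 6 genes had a positive fold change at 3 months (median 1.05 on the log2 scale). At 9 months 4 of 6 did (median 0.15), beside 50.6% of all genes at 3 months and 50.7% at 9 months. On leaving out single libraries Hmgcs1 went as low as -0.24 and Pmvk as low as -0.29 at 3 months. Idi1 had 11.8, 77.2 and 129 CPM in 3-month exposed libraries 1, 2 and 3, against 24.2 and 12.7 CPM in the controls. At 9 months Idi1 had 13.8, 105 and 65.5 CPM in exposed libraries, against 23.9 and 21.9 CPM in the controls. Exposed libraries 2 and 3 lay above every control at both times, while library 1 lay below both controls each time. The log2 fold change of Idi1 was 1.99 ± 0.85 (SE) at 3 months, with an adjusted p of 0.311, and 1.43 ± 0.83 at 9 months (adjusted p = 1.0), and 1.71 ± 0.59 as the mean (adjusted p = 0.491). Without exposed library 3 it was 1.28 at 3 months, and without exposed library 2 it was 0.79 at 9 months.

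Hmgcs1, which condenses acetyl-CoA units into HMG-CoA, had 114, 213 and 265 CPM in 3-month exposed libraries, against 233 and 40.6 CPM in the controls. At 9 months Hmgcs1 had 131, 200 and 228 CPM in exposed libraries, against 211 and 286 CPM in the controls. The groups overlapped at both times, and the low value at 3 months was that of control library 3. Its log2 fold change was 0.53 ± 0.56 at 3 months, with an adjusted p of 0.707, and -0.41 ± 0.54 at 9 months (adjusted p = 1.0), and the sign at 3 months turned without that control (-0.24). Acat2, acetoacetyl-CoA thiolase, was likewise at 2.35 CPM in that library and at 15.1 to 34.9 CPM in the others. Mvk, Pmvk, phosphomevalonate kinase, and Mvd, the decarboxylase, were low, at no more than 17.3, 5.18 and 4.58 CPM in any library, and Pmvk had 0 counts in 3-month control library 2.

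The isoprenoid diphosphate synthases, which supply squalene synthesis and protein prenylation, were not called, and at 3 months the sign of both turned on 1 control library. The log2 fold change at 3 months was -0.46 for Fdps, or 1.66 without control library 3, and -0.74 for Ggps1, or 0.50 without control library 2. Fdps, farnesyl diphosphate synthase, had 18.6, 41.3 and 99.8 CPM in 3-month exposed libraries, against 16.9 and 129 CPM in the controls. Its 9-month values were 26.8, 83.9 and 57.5 CPM in exposed libraries, against 33.4 and 46.3 CPM in the controls. Ggps1, geranylgeranyl diphosphate synthase, ranged from 2.27 to 25.5 CPM.

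All 3 genes from farnesyl diphosphate to lanosterol had positive fold changes at both times, with medians of 1.57 at 3 months and 0.88 at 9 months on the log2 scale. Fdft1 had 42.7, 91.0 and 112 CPM in 3-month exposed libraries 1, 2 and 3, against 34.6 and 20.8 CPM in the controls. At 9 months Fdft1 had 52.1, 113 and 74.0 CPM in exposed libraries, against 29.4 and 56.9 CPM in the controls. All exposed libraries lay above both controls at 3 months, and at 9 months exposed library 1 lay below 1 control. For Fdft1 the log2 fold change was 1.57 ± 0.48 at 3 months (adjusted p = 0.172), 0.88 ± 0.46 at 9 months (adjusted p = 1.0) and 1.23 ± 0.33 as the mean (adjusted p = 0.314). At 9 months it was 0.50 without control library 1 and 1.42 without control library 2. The transcript counted for Fdft1 overlaps the span of Ctsb, a protease gene with 552 to 844 CPM, by 774 bases, and a transcript of Fdft1 outside Ctsb, chosen after seeing the data, gave 1.62 at 3 months and 0.88 at 9 months.

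Sqle, a rate-limiting step of sterol synthesis, had 9.0, 25.6 and 57.7 CPM in 3-month exposed libraries, against 6.75 and 7.97 CPM in the controls. At 9 months Sqle had 8.63, 71.2 and 42.2 CPM in exposed libraries, against 9.51 and 24.7 CPM in the controls. Every exposed library was above both controls at 3 months, library 1 by little, and at 9 months library 1 was the lowest of all 5. The log2 fold change of Sqle was 2.06 ± 0.84 at 3 months, with an adjusted p of 0.293, and 1.24 ± 0.80 at 9 months (adjusted p = 1.0). It was 1.23 at 3 months without exposed library 3, and 0.56 without exposed library 2 and 2.08 without control library 2 at 9 months. Lss, which closes the rings to lanosterol, ranged from 19.2 to 112 CPM with the highest value in 3-month exposed library 3.

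**Figure D4:**
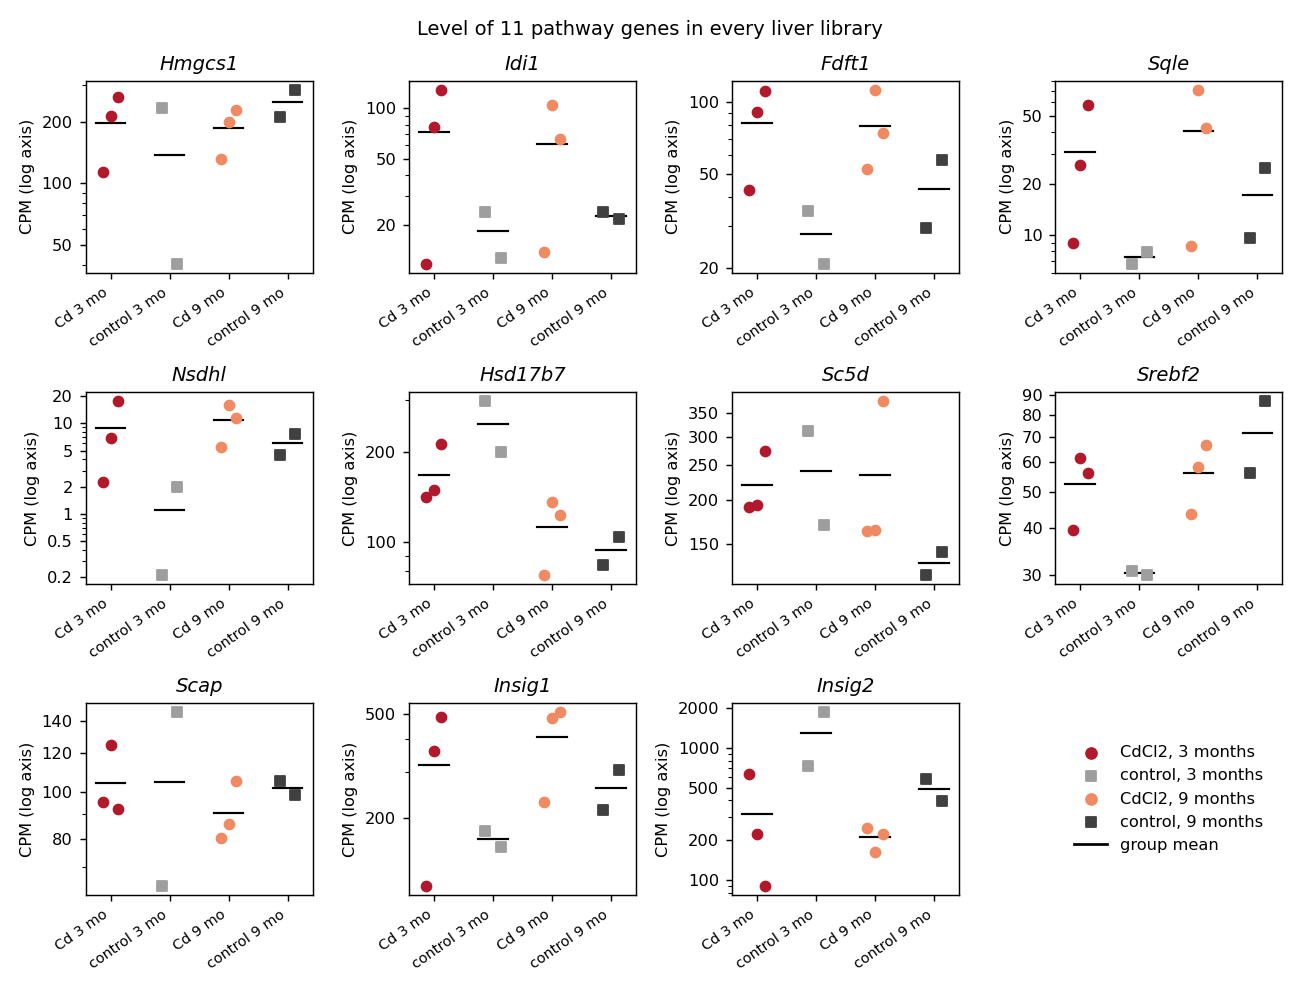
CPM, on log axes, of 11 genes in every library, with exposed livers as circles, controls as squares and group means as lines; 2 or 3 libraries a group. In Idi1 and Sqle the circle of exposed library 1 lies below the controls at 9 months while the other 2 circles lie above them, and in Insig2 every circle lies below every square of its time.

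In the last stretch, from lanosterol to cholesterol, 3 of 9 genes had a positive fold change at 3 months and 7 of 9 at 9 months (medians -0.22 and 0.69 on the log2 scale). Nsdhl, a sterol dehydrogenase of demethylation, had 2.25, 6.96 and 17.7 CPM in 3-month exposed libraries, against 0.211 and 1.99 CPM in the controls, of which the first is 1 count. At 9 months Nsdhl had 5.49, 16.1 and 11.4 CPM in exposed libraries, against 4.42 and 7.56 CPM in the controls. The exposed libraries lay above the controls at 3 months and overlapped them at 9 months. Its log2 fold change was 2.91 ± 1.02 at 3 months, with an adjusted p of 0.235, and 0.87 ± 0.90 at 9 months (adjusted p = 1.0). At 3 months it was 1.96 without exposed library 3 and 5.29 without control library 3, and at 9 months 0.48 without exposed library 2.

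Sc5d, the sterol desaturase, had 191, 193 and 273 CPM in 3-month exposed libraries, against 311 and 170 CPM in the controls. At 9 months Sc5d had 163, 164 and 378 CPM in exposed libraries, against 123 and 143 CPM in the controls. The 9-month groups did not overlap, and exposed library 3 held the high value. Its log2 fold change was -0.14 ± 0.39 at 3 months, with an adjusted p of 0.913, and 0.82 ± 0.41 at 9 months (adjusted p = 1.0), or 0.29 at 9 months without exposed library 3. Msmo1 and Cyp51, which remove methyl groups from lanosterol, had 16.0 to 210 CPM and 37.8 to 183 CPM, each lowest in 3-month exposed library 1. Ebp, the sterol isomerase, ranged from 110 to 190 CPM, Tm7sf2, a sterol reductase, from 62.8 to 215 CPM, and Dhcr7, which makes cholesterol in the final step, from 12.1 to 46.9 CPM. Lbr, the other reductase of that kind, was at no more than 72.5 CPM.

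Stard4 had 166, 362 and 693 CPM in 3-month exposed libraries 1, 2 and 3, against 269 and 79.9 CPM in the controls. At 9 months Stard4 had 254, 505 and 403 CPM in exposed libraries, against 211 and 166 CPM in the controls. The groups overlapped at 3 months and did not at 9 months. As the mean of both times its log2 fold change was 1.13 ± 0.40 (adjusted p = 0.498), or 1.70 without 3-month control library 2, where it passed.

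Among the regulators, Insig2 had the smallest p of the 27 genes for cadmium against control, at 3 months and as the mean of both times. It had 631, 224 and 89.6 CPM in 3-month exposed libraries 1, 2 and 3, against 727 and 1868 CPM in the controls. At 9 months Insig2 had 247, 162 and 221 CPM in exposed libraries, against 577 and 393 CPM in the controls. Every exposed library lay below every control of its time. For Insig2 the log2 fold change was -2.04 ± 0.60 at 3 months (adjusted p = 0.159), -1.21 ± 0.59 at 9 months (adjusted p = 1.0) and -1.63 ± 0.42 as the mean (adjusted p = 0.274). At 3 months it was -3.05 without exposed library 1 and -1.20 without control library 3. Over all alternatives and libraries left out, the mean lay between -2.13 and -1.21, and Insig2 passed without the filter on low counts and without 3-month control library 2.

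Insig1 had 109, 361 and 486 CPM in 3-month exposed libraries, against 178 and 154 CPM in the controls. At 9 months Insig1 had 230, 483 and 509 CPM in exposed libraries, against 214 and 304 CPM in the controls. Exposed library 1 was the lowest of its time at 3 months and lay between the controls at 9 months. For Insig1 the log2 fold change was 0.94 ± 0.51 at 3 months (adjusted p = 0.417), 0.65 ± 0.50 at 9 months (adjusted p = 1.0) and 0.80 ± 0.36 as the mean (adjusted p = 0.582). At 3 months it was 0.50 without exposed library 3.

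Srebf2 had 39.6, 61.3 and 56.0 CPM in 3-month exposed libraries, against 30.8 and 30.1 CPM in the controls. At 9 months Srebf2 had 43.6, 58.3 and 66.4 CPM in exposed libraries, against 56.0 and 87.0 CPM in the controls. The exposed libraries were above both controls at 3 months and overlapped them at 9 months. Its log2 fold change was 0.78 ± 0.32 at 3 months, with an adjusted p of 0.298, and -0.35 ± 0.31 at 9 months (adjusted p = 1.0).

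Scap had 95.4, 125 and 92.2 CPM in 3-month exposed libraries, against 63.9 and 146 CPM in the controls. At 9 months Scap had 80.3, 85.9 and 105 CPM in exposed libraries, against 105 and 98.3 CPM in the controls. The groups overlapped at both times, and Scap gave log2 fold changes near 0, -0.02 ± 0.33 (adjusted p = 0.994) after 3 months and -0.17 ± 0.33 (adjusted p = 1.0) after 9. Mbtps1 and Mbtps2 ranged from 25.9 to 67.6 and from 9.68 to 35.9 CPM, and neither was called.

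The second question was whether the effect of cadmium differed between the times. No member passed the test of the difference, 9 minus 3 months, and 0% of all genes did, with limma voom and DESeq2 also at 0 members (0% and 0.303% of all genes). At an unadjusted p under 0.05 there was 1 member, Srebf2 (3.7% of 27, beside 9.42% of all genes), with a difference of -1.13 ± 0.44 (adjusted p = 0.491). Hsd17b7, a ketosteroid reductase of sterol demethylation, had a difference of 0.82 ± 0.46 (adjusted p = 0.6) and Sc5d one of 0.96 ± 0.56 (adjusted p = 0.613). Without 3-month control library 2, Acat2 (-2.94) and Hmgcs1 (-2.70) passed, beside 2.06% of all genes.

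The third question was the change with time within each treatment. In exposed livers 0 members and 0% of all genes passed in the comparison of 9 with 3 months, and at an unadjusted p under 0.05 there were also 0 members, beside 4.95% of all genes. DESeq2 and limma voom called 0 members there, beside 0.143% and 0.0213% of all genes. The fold changes of the members lay between -0.67 and 0.53 on the log2 scale. In control livers 0 members passed, where 1.89% of all genes did, and 5 had an unadjusted p under 0.05 (18.5%), beside 20.1% of all genes. DESeq2 called 2 members there, Hsd17b7 and Srebf2, beside 9.57% of all genes, and limma voom 0, beside 0%. In these controls 3 members passed without the filter on low counts (5.12% of all genes), 1 without the libraries with pancreatic markers (4.65%), 2 without 3-month control library 2 (6.36%) and 3 without 3-month control library 3 (15.3%). Both comparisons share their libraries with those above.

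Hsd17b7 had 84.0 and 104 CPM in 9-month control libraries, against 297 and 200 CPM in 3-month control libraries, with 77.7 to 136 CPM in 9-month exposed libraries, against 142 to 213 CPM in 3-month exposed libraries. The 9-month values lay below the 3-month values in both treatments. The log2 fold change, 9 over 3 months, was -1.40 ± 0.36 in controls (adjusted p = 0.059) and -0.58 ± 0.29 in exposed livers (adjusted p = 0.996). Srebf2 was higher in 9-month than in 3-month controls, with 56.0 and 87.0 against 30.8 and 30.1 CPM, a log2 fold change of 1.23 ± 0.35 (adjusted p = 0.0713). In exposed livers Srebf2 gave 0.10 ± 0.28 (adjusted p = 1.0). The other members with an unadjusted p under 0.05 in controls were Nsdhl (2.33), Mbtps1 (0.90) and Ggps1 (-2.25).

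Genes known to follow feeding or the time of day were compared between exposed and control livers in the same way. Of 10 feeding and fasting genes 1 passed as the mean of both times, beside 0.064% of all genes. It was Igfbp1, a binding protein of insulin-like growth factors known to be high in fasting. Igfbp1 had 11.8, 20.3 and 18.4 CPM in 3-month exposed libraries, against 176 and 2116 CPM in the controls. At 9 months Igfbp1 had 11.1, 45.8 and 12.6 CPM in exposed libraries, against 33.2 and 59.3 CPM in the controls. The exposed libraries lay below the controls at 3 months and overlapped them at 9 months, and the mean log2 fold change was -3.54 ± 0.56 (adjusted p = 0.0382). It was -2.19 (adjusted p = 0.00859) without 3-month control library 3 and -1.76 (adjusted p = 0.0673) without the 3 libraries over 100 CPM of pancreatic markers. The call was also lost with the replicate block (adjusted p = 0.0987), with counts summed over transcripts (0.14), with at least 5 CPM in 2 libraries (0.0585) and on leaving out each of 6 other single libraries (up to 0.16).

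At an unadjusted p under 0.05 there were 12 of 14 clock genes as the mean of both times (85.7%), 8 higher and 4 lower, beside 8.35% of all genes. Of the 14, 3 passed, beside 0.064% of all genes. These were all higher in exposed livers: Dbp (5.93 ± 0.58, adjusted p = 0.00127), Per3 (5.72 ± 0.61, adjusted p = 0.00203) and Tef (2.34 ± 0.31, adjusted p = 0.00969). Dbp, a transcription factor with a strong daily rhythm, had 10.2, 17.1 and 31.7 CPM in 3-month exposed libraries, against 0.211 and 0 CPM in the controls. At 9 months Dbp had 26.4, 37.4 and 27.3 CPM in exposed libraries, against 1.99 and 1.33 CPM in the controls. Exposed and control libraries did not overlap at either time. Limma voom did not call Dbp (5.65, adjusted p = 0.451) or Per3 (5.38, adjusted p = 0.806). It called 4 of the 14, Tef and Nr1d2 higher and Arntl and Nfil3 lower, beside 0.0853% of all genes. Tef was not called with counts summed over transcripts (2.4, adjusted p = 0.0537) or without 9-month control library 1 (2.37, adjusted p = 0.05) or 2 (2.34, adjusted p = 0.056). The part of feeding state and time of day in the values of the 27 genes was not tested.

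In the other 4 lists around the pathway no gene passed as the mean of both times in the main edgeR fit or with limma voom. DESeq2 called Fads2 (adjusted p = 0.0163) and Npc2 (adjusted p = 0.0164), beside 0.944% of all genes. Without the filter on low counts edgeR called Aacs, Srebf1 and Thrsp, all higher, beside 1.16% of all genes. Of 13 genes of SREBP1 and fatty acid synthesis, 10 had a positive fold change (median 0.41 on the log2 scale), beside 51.3% of all genes. Of these 13, 3 (23.1%) had an unadjusted p under 0.05, beside 8.35% of all genes. The smallest p were those of Fads2, a fatty acid desaturase (0.81 ± 0.20, adjusted p = 0.246), and Srebf1, which encodes SREBP1 (1.58 ± 0.48, adjusted p = 0.418). Srebf1 depended on the 3-month controls, with 3.1 (adjusted p = 0.00176) without control library 3, 1.15 (adjusted p = 0.0383) without control library 2 and 2.87 (adjusted p = 0.0187) without the 3 libraries with pancreatic markers, and it also passed without the filter on low counts (1.58, adjusted p = 4.88e-07). Fads2 had 267, 234 and 234 CPM in 3-month exposed libraries, against 122 and 127 CPM in the controls. At 9 months Fads2 had 208, 339 and 260 CPM in exposed libraries, against 196 and 150 CPM in the controls. Of 10 further SREBP2 targets and sterol regulators 8 had a positive fold change (median 0.25), beside 51.3% of all genes. An unadjusted p under 0.05 was found for 0 of them, beside 8.35% of all genes. Mmab (0.88) and 0610007P14Rik (0.34) were at the smallest p.

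Of 16 genes of cholesterol storage, transfer and efflux 10 had a positive fold change (median 0.10), beside 51.3% of all genes. Of these 16, 4 had an unadjusted p under 0.05, all higher, beside 8.35% of all genes. Npc2, which passes cholesterol out of lysosomes, averaged 68.4 ± 6.75 CPM (SD, n = 3) in 3-month exposed libraries, against 32.8 ± 5.3 CPM (n = 2) in the controls. At 9 months Npc2 had 59.3, 62.1 and 58.5 CPM in exposed libraries, against 31.2 and 44.3 CPM in the controls. The groups did not overlap at either time, and the mean log2 fold change was 0.86 ± 0.20 (adjusted p = 0.246). Mylip, a ubiquitin ligase, was next (0.83 ± 0.32, adjusted p = 0.531). Of 8 genes of the prenyl, dolichol and ubiquinone branches 4 had a positive fold change (median -0.003), beside 51.3% of all genes. An unadjusted p under 0.05 was found for 0 of these 8, beside 8.35% of all genes. Coq2 (0.43) and Nus1 (-0.23) were at the smallest p.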

How the data were processed

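Per the labels' protocols, total RNA of mouse liver was fragmented and made into libraries with the NEBNext Ultra RNA kit. The submitters' processing notes name TopHat2 2.0.13, MACS2 2.1.0.20151222 and the hg19, mm10 and rn6 builds, with no role given for each. Per the file headers, the deposited table gives read counts and TPM for 79884 transcripts of 21768 genes in each library. The authors' TPM sum to 1000000 per library, and the authors' counts were used as deposited. How reads shared by transcripts were counted, and on which strand, is not given in the sources used here. The 10 input columns were matched to samples by name, and 12 further columns matched no sample and were not used. The immunoprecipitated libraries are not analysed here.

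Each gene was represented by its transcript with the highest total count. Counts were fitted in edgeR 4.0.16 (R 4.3.3) with filterByExpr, TMM scaling and a quasi-likelihood model of 4 group means over 10 libraries, the groups sharing 1 estimate of the spread, with 6 residual degrees of freedom. Tests were two-sided with Benjamini-Hochberg adjustment over 14067 genes and a threshold of 0.05. CPM values are TMM-scaled, and the enzyme mean uses log2(CPM + 1). DESeq2 1.42.0, limma 3.58.1 and other settings were alternatives. The 27 genes, the other lists and the tests were chosen with earlier results of these data known, so none is independent evidence. Levels and tests are given for 7 genes picked by role, for the 3 smallest p of the members in each of the 4 comparisons of cadmium, and, in other lists, for genes past the threshold or else the 2 with the smallest p as the mean of both times. Whether replicate numbers pair libraries across groups is not known. None of the 12 pairs with the same number had correlated deviations above 0.1 (-0.29 to 0.042), against 7 of 25 pairs with different numbers (-0.227 to 0.29). Deviations from means of 2 or 3 libraries cannot exclude a pairing. Motifs were searched in RefSeq promoter windows of GRCm38.p6. Depth sets a floor of 3 counts, or 0.352 to 0.663 CPM, which covers counting error only.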

Additional observations from a re-analysis of the deposited data

How the results depend on the processing

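The count of members past the threshold was 0 in the 6 comparisons and stayed 0 at 9 months and between times in exposed livers under every alternative run. At 3 months it was 1 with DESeq2 and 7 without the filter on low counts, and 0 to 4 on leaving out single libraries (4 without 3-month control library 2, 1 without 3-month control library 3). As the mean of both times it was 1 with DESeq2, 6 without the filter and 0 to 4 on leaving out single libraries. The difference between times gave 0 to 2 on leaving out single libraries. Between times in controls it was 2 with DESeq2, beside 9.57% of all genes, and 3 without the filter, beside 5.12%. It was 2 at an adjusted p under 0.1 and 1 with at least 5 CPM in 2 libraries. The shares of all genes at that looser threshold and with that CPM filter are not given here, so those counts cannot be set against them. No test in which the replicate block was added called a member, 0 in each comparison, so the replicate block changed no call of the 27 genes. The median log2 fold change of the members was 0.22 to 0.82 at 3 months, 0.28 to 0.81 at 9 months and 0.19 to 0.57 as the mean on leaving out single libraries, and 0.53 to 0.89, 0.22 to 0.61 and 0.31 to 0.47 under the other alternatives. The enzyme mean difference was 0.36 to 0.66 at 3 months and 0.26 to 0.46 at 9 months with other pseudocounts or the deposited TPM, 0.11 to 0.98 and 0.18 to 0.75 on leaving out single libraries.

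Of 38 results on the 11 genes given in full, 30 kept their sign in every alternative. Without the 3 libraries with pancreas markers the sign turned for Hmgcs1 at 3 months (-0.2), at 9 months (0.01) and in the mean (-0.09), for Srebf2 at 9 months (0.14), and for Scap at 3 months (0.74) and in the mean (0.3). Without 3-month control library 3 it turned for Hmgcs1 at 3 months (-0.24) and in the mean (-0.32), and for Scap at 3 months (0.71) and in the mean (0.27). Without 3-month control library 2 it turned for Sc5d at 3 months (-0.51 to 0.37 over single libraries left out). The same held for Hsd17b7 in the mean (-0.28 to 0.0). Nus1, which is not among these 11 genes, also turned without that library in the mean (-0.43 to 0.03). Leaving out single libraries moved Hmgcs1 over -0.24 to 2.29 at 3 months and -0.32 to 0.94 in the mean, and Scap over -0.33 to 0.27 in the mean. Scap at 3 months was 0.0 without the filter, 0.13 with the replicate block, 0.03 for summed transcripts, 0.1 with limma voom, and -0.49 to 0.71 on leaving out single libraries. The cause of these changes was not tested. The counts of all genes past the threshold moved far more, with 3 to 1247 at 3 months on leaving out single libraries, and 1 to 2339 between times in controls. Depth limits Mvd, Pmvk, Nsdhl, Mvk, Ggps1 and Acat2, which had 20 or fewer counts in some libraries.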
